A study of Mus musculus with 121 samples.

Results

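The levels of 10 genes of the NRF2 antioxidant response (Nfe2l2, Keap1, Nqo1, Hmox1, Gclc, Gclm, Txnrd1, Srxn1, Slc7a11 and Prdx1) were followed in mouse fibroblasts exposed to metabolic cycles. The genes were chosen by name among the 31053 genes listed, and 10 of 10 passed the filter that left 13292 genes for testing. The cells were an immortalized ear fibroblast line carrying the Per2::Luc reporter, in which luciferase is fused to the clock protein PER2. All treatments used this one line. In HL, each 24 h cycle began with 12 h of rich medium (high glucose with insulin) and ended with 12 h of poor medium (low glucose without insulin). In LH the order was the opposite, and in HH the rich medium was renewed every 12 h. After 3 cycles the cells were left without medium changes for 12 h, and RNA was then collected every 4 h in 6 collections. The libraries (21 HL, 22 LH and 19 HH, with 2 to 4 per treatment and collection) were made by 3′DGE, which reads each transcript near its 3′ end. Levels are given as counts per 1000000 counted reads (CPM). Since each transcript gives reads from its end only, CPM was compared between genes without dividing by length. Whether the ends of all genes were counted equally well was not tested. The study's methods speak of independent biological experiments, but the labels tie no library to a culture, so p-values measure the spread between these libraries.

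NRF2, encoded by Nfe2l2, is a transcription factor that KEAP1 holds in the cytoplasm and marks for degradation. When oxidants or electrophiles modify KEAP1, NRF2 escapes, enters the nucleus, pairs with a small MAF protein and binds antioxidant response elements near its target genes. These targets make glutathione, reduce thioredoxin and peroxiredoxins, and detoxify quinones and heme. In fibroblasts they buffer the oxidants produced by metabolism, and the NADPH they use comes in part from glucose.

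The core of the antioxidant response element can be written TGACNNNGC, and it was searched on both strands in the 300 bases around the start of each gene (250 before and 50 after it; RefSeq, GRCm38.p6). It occurred in 12.4% of all 32851 such windows, and it can overlap the related AP-1 type sites TGAGTCA and TGACTCA. Of the members, 8 have windows in the table, and 5 of these 8 genes have a match in one window. Counted by windows as for all genes, this is 5 of 10, since Txnrd1 has 3. The windows of Keap1, Nqo1 and Slc7a11 have none. The windows with a match are shown for that match alone. Members without one, such as Nqo1 and Keap1, also take part in the relations across libraries described further on. Each is written 5′ to 3′ on the strand of its gene, with the match in capitals.
Nfe2l2 (chr2:75704614-75704913, minus strand): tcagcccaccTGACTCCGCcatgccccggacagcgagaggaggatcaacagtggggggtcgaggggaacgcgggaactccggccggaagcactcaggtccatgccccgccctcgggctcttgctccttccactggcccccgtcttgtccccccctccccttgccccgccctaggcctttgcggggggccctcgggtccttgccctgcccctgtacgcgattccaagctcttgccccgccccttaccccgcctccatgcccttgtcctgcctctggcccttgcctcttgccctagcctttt
Gclm (chr3:122245307-122245606, plus strand): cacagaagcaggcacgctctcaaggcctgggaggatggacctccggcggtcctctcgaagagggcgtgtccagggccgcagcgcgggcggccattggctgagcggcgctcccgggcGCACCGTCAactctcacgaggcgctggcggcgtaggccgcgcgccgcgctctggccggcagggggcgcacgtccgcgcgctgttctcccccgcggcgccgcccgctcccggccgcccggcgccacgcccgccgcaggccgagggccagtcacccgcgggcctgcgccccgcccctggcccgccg
Txnrd1 (chr10:82858956-82859255, plus strand): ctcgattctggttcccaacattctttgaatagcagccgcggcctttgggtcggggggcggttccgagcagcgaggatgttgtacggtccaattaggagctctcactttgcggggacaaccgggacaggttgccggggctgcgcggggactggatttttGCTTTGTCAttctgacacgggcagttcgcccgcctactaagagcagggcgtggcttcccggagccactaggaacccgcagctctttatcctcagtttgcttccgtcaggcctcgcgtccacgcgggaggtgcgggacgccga
Srxn1 (chr2:152105274-152105573, plus strand): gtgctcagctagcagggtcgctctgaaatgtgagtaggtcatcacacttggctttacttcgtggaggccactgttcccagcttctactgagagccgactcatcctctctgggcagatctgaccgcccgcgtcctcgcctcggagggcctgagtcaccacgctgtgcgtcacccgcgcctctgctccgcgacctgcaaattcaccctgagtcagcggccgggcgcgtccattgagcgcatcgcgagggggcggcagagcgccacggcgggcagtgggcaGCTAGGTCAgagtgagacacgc
Prdx1 (chr4:116685349-116685648, plus strand): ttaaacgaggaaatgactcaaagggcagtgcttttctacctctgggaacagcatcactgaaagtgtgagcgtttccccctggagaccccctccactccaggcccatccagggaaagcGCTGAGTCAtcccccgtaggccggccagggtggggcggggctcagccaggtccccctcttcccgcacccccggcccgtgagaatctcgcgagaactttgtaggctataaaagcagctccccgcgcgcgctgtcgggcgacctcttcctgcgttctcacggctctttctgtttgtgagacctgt
The match of Nfe2l2 lies on the strand of the gene and begins 240 bases before the start (position -240). In the other 4 genes the match is on the opposite strand, at position -134 in Gclm, -92 in Txnrd1 and -133 in Prdx1, and 28 bases after the start in Srxn1. The Prdx1 match overlaps TGAGTCA, and the others do not. A match describes these letters only.

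2 properties of the libraries touch the results below. First, by the library numbers of the read summary, 35 of the 62 libraries carry another treatment, collection or replicate name than their titles, and 5 are not listed. Only the 19 HH libraries and 3 HL libraries of the first collection have the same name in both. Results are given by titles, and beside them by library numbers (57 libraries, 19 per treatment). The clock gene Nr1d1, as a measured difference between the assignments, averaged 24.1, 80.0 and 157 CPM at 8 h in HL, LH and HH by titles, and 162, 126 and 157 CPM by library numbers. Its spread within groups differed too. At 12 h it was at 94.3 CPM ± 66.9 (SD, n = 4) in HL and 128 ± 57.5 (n = 4) in LH by titles, and at 84.7 ± 15.9 (n = 4) and 87.9 ± 8.73 (n = 4) by library numbers. At 8 h the SD in HL was 13.8 by titles and 45.5 by library numbers (n = 3 each). Which names are right was not tested. Second, 1 library, LH collection 2 replicate 2, had 104912 counts, while the others had 2136819 to 11619095. In it Nqo1 had 0 counts, which allows up to 28.6 CPM (3 counts), and it also held 505 CPM of macrophage and blood markers, where the highest HL library had 32.9. It is left out of the overall ranges of levels, which cover 61 libraries, and it stays in the tests and in the values by treatment. The 10 fibroblast markers had counts in all 62 libraries, with Col1a1 at 1753 CPM or more, and Krt5 and Myod1 had no counts. Of the 4 endothelial markers Pecam1, Cdh5 and Tek averaged 0.276, 0.0672 and 0.00887 CPM, but Kdr was at 172 CPM (20.3 to 270) with counts in 62 of 62 libraries. Sox9, listed with Myod1 as a chondrocyte marker, was at 520 CPM (294 to 1129). The limits given for counts of 0 cover counting error only.

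The 10 genes were expressed at very different levels, and the sensor pair was among the higher ones. Prdx1, a peroxiredoxin that reduces hydrogen peroxide, had the highest median, 390 CPM (184 to 914 over 61 libraries). Nfe2l2 followed with a median of 186 CPM (67.1 to 338), and Txnrd1, the thioredoxin reductase of the cytosol, with 182 CPM (112 to 552). Txnrd1 and Nfe2l2 cannot be ordered, since Nfe2l2 was the higher of the pair in 33 of 61 libraries. Keap1 had 130 CPM (101 to 154) and was below Txnrd1 in 59 of 61 libraries. Hmox1, the inducible heme oxygenase, had 67.3 CPM (31.3 to 165), and Gclm, the modifier subunit of the enzyme that starts glutathione synthesis, had 61.5 CPM (39.1 to 119). Srxn1, which repairs overoxidized peroxiredoxins, had 53.4 CPM (30.1 to 102), and Gclc, the catalytic subunit partnered with Gclm, had 50.5 CPM (23.1 to 178). Srxn1 exceeded Gclc in 30 of 61 libraries, so these neighbours share a level. Nqo1, a quinone reductase often used as the marker of NRF2 activity, was low at 9.47 CPM (3.23 to 54.0). Slc7a11, the cystine importer that feeds glutathione synthesis, was lowest at 1.71 CPM (at most 14), below Nqo1 in 61 of 61 libraries. Its counts of 0 to 75 per library limit what can be seen of it, and a count of 0 in HH collection 4 replicate 4 allows up to 0.493 CPM.

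The genes also differed in how much they varied between replicates. The biological coefficient of variation that edgeR fitted within treatment and collection was 0.126 for Keap1, and 2.0% of the genes tested had a lower value. It was 0.180 for Gclm, 0.197 for Srxn1, 0.202 for Hmox1 and 0.210 for Nfe2l2, all under the median of 0.269 over the genes tested. Nqo1 (0.452), Gclc (0.50) and Slc7a11 (0.699) were the most variable. The Gclc levels in the separate sequencing runs of a library correlated with r = 0.92 over 57 libraries, a description, as both runs read the same library. In Keap1, with a narrow range, that value was 0.14. The 3′ end of Keap1 (chr9:21229730-21239361, GRCm38, minus strand) shares exons with the antisense gene Gm16754, and the use of strand in the counting is not given in the sources used here, so reads of both genes cannot be told apart. Gclm (chr3:122245557-122270732, plus strand) likewise shares exon sequence with Gm17494 on the opposite strand and with Gm6061 on its own strand, and reads there are uncertain, for Gm6061 with any strand setting.

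**Figure D1:**
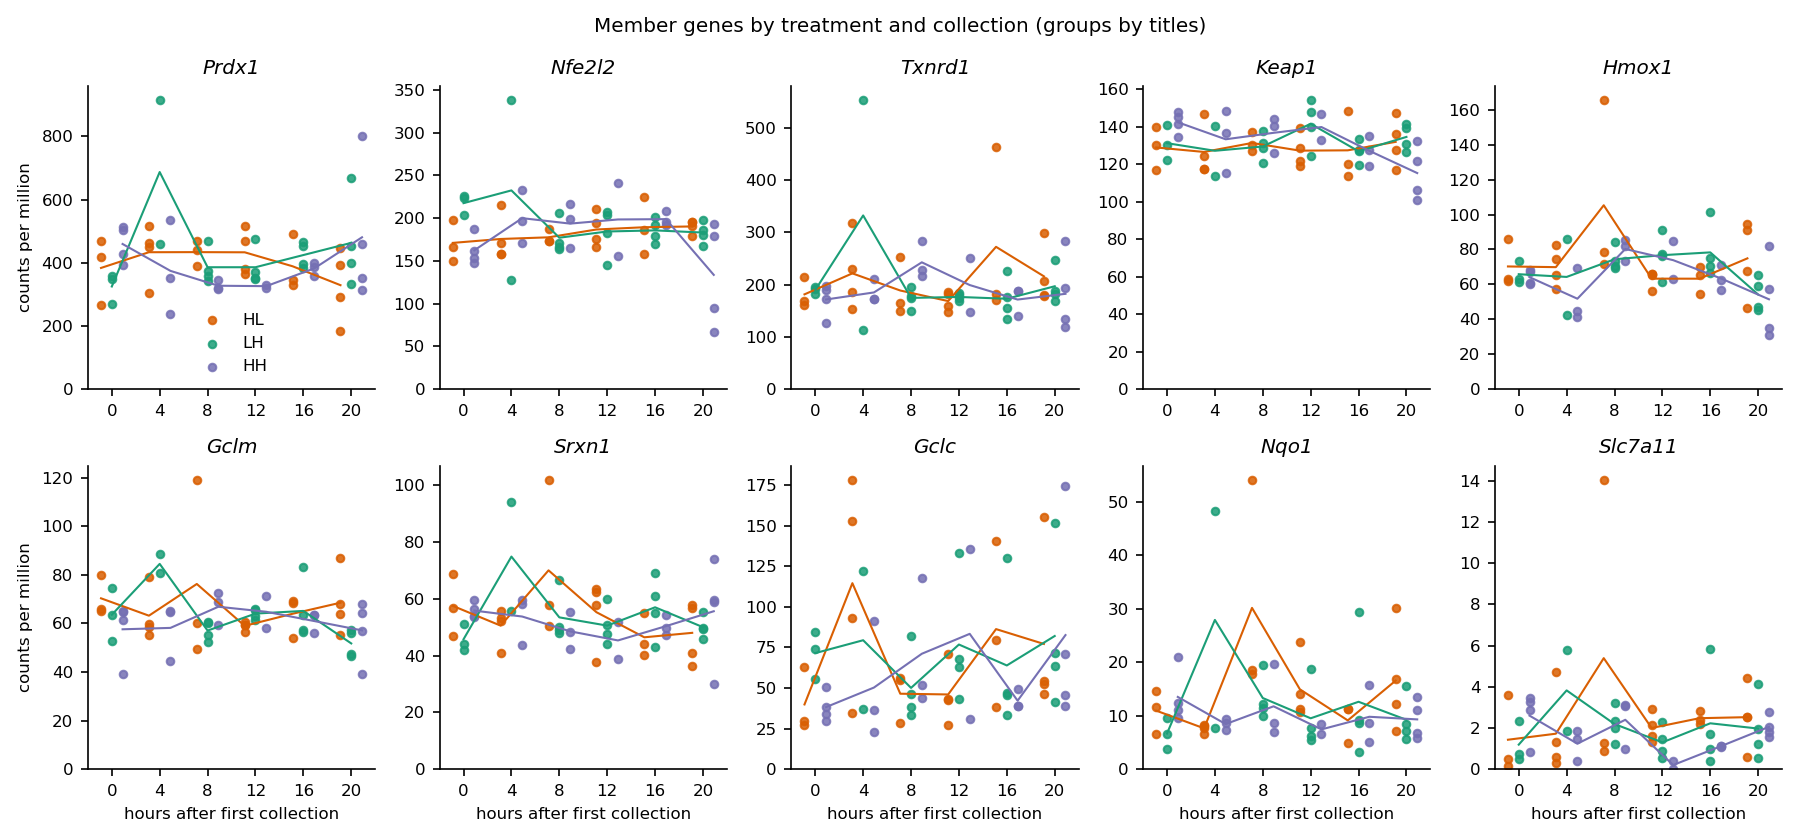
Level of each member (CPM, vertical axis) in each of 61 libraries against hours after the first collection (horizontal axis), with treatments offset sideways, lines through the group means by titles, and the library under 1000000 counts left out. Most points of the 3 treatments overlap, and single libraries of HL and LH stand above the rest, such as HL at 8 h in Hmox1 and Nqo1.

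No member was called different between treatments (0 of 10 in each of the 3 comparisons). The treatments were compared with edgeR's quasi-likelihood test with collection as a term, and a gene was called when p was under 0.01 over the 3 treatments and under 0.05 for the pair, without adjustment over genes. Of all genes, 1.16% by titles were called in LH against HL, 1.2% in HH against HL and 0.91% in HH against LH. By library numbers the shares were 1.34%, 0.568% and 1.63%, and again 0 of 10 members were called. DESeq2 called 0 of 10 too. At an unadjusted p under 0.05, edgeR and DESeq2 each had 0, 2 and 0 members in the 3 comparisons by titles, where edgeR had 5.69%, 7.42% and 5.23% of all genes and DESeq2 5.99%, 7.67% and 5.50%. By library numbers edgeR had 2, 0 and 4 members, beside 7.63%, 3.62% and 10.2% of all genes.

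The fitted levels of the members were lower in HH than in HL and LH by titles, without a call. The log2 fold change of HH against HL was negative in 10 of 10 members with a median of -0.19, while it was negative in 49.5% of all genes tested, whose median was 0.0023. That of HH against LH was negative in 10 of 10 as well, with a median of -0.11, beside 49.9% of all genes and a median of 0.00024. These comparisons share the HH libraries, and the members varied together, so the genes are not separate observations. By library numbers the HH against LH changes were again negative in 10 of 10 (median -0.21), but HH against HL was negative in 8 of 10 with a median of -0.027. LH against HL turned with the assignment, from a median of -0.073 by titles (7 of 10 negative) to 0.13 by library numbers (1 of 10 negative). Of all genes, 49.7% were negative in LH against HL by titles, and 49.2%, 49.8% and 49.99% in LH against HL, HH against HL and HH against LH by library numbers.

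Hmox1 had the change farthest from 0 relative to its error. HL libraries had 46.5 to 165 CPM (median 66.1), LH libraries 42.5 to 101 (median 70.0) and HH libraries 31.3 to 85.6 (median 63.0). The groups overlapped over most of their range, and the 165 CPM in HL was from 1 library, collection 3 replicate 4 by titles. The part of that library in the fitted change was not tested. HH against HL was -0.29 on the log2 scale (95% interval -0.49 to -0.089; edgeR adjusted p = 0.503 by titles), and by library numbers it was -0.15 (-0.36 to 0.061).
Gclm was at 49.6 to 119 CPM in HL (median 60.6) and 39.1 to 72.6 in HH (median 63.6), so the medians did not follow the fitted difference of -0.20 (-0.38 to -0.022; edgeR adjusted p = 0.636). By library numbers this difference was -0.014 (-0.19 to 0.16).
Nqo1 had 4.87 to 54.0 CPM in HL (median 11.3), 0 to 48.2 in LH (median 8.51) and 5.15 to 21 in HH (median 8.62). Its HH against HL change was -0.49 (-0.98 to 0.0041), and the highest libraries of HL and LH lay above every HH library. That of HL, at 54.0 CPM, was again collection 3 replicate 4, and its part in the change was not tested. LH against HL was -0.34 (-0.81 to 0.14) by titles and 0.39 (-0.062 to 0.84) by library numbers.
Slc7a11 had the largest fitted value, -0.64 (-1.41 to 0.12) for HH against HL, at a level of 1.75 CPM ± 1.07 (SD, n = 19) in HH and 2.51 ± 2.94 (SD, n = 21) in HL. By library numbers this change was 0.0445 (-0.75 to 0.84).

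Among the regulators and the thioredoxin enzymes, Keap1 had the narrowest intervals, and Nfe2l2 and Txnrd1 depended on the assignment. Keap1 had intervals that excluded changes beyond -0.15 and 0.11 on the log2 scale in the 3 comparisons by titles, and beyond -0.16 and 0.14 by library numbers. Nfe2l2 was at 182 CPM ± 20.3 (SD, n = 21) in HL, 196 ± 43.2 (n = 22) in LH and 177 ± 42.7 (n = 19) in HH. Its HH against LH change was -0.18 (-0.38 to 0.0165) by titles and -0.26 (-0.47 to -0.061; edgeR adjusted p = 0.366) by library numbers. Txnrd1 was -0.092 (-0.38 to 0.19) in LH against HL by titles and 0.37 (0.081 to 0.65; edgeR adjusted p = 0.62) by library numbers. Its medians by library numbers were 176 CPM in HL and 182 CPM in LH. LH replicate 4 averaged 333 CPM, against 191, 192 and 173 CPM in LH replicates 1, 2 and 3, and its part in the change was not tested. Srxn1 and Prdx1 had no fitted change beyond 0.11 in size in any comparison or assignment, with intervals inside -0.32 and 0.27.

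**Figure D2:**
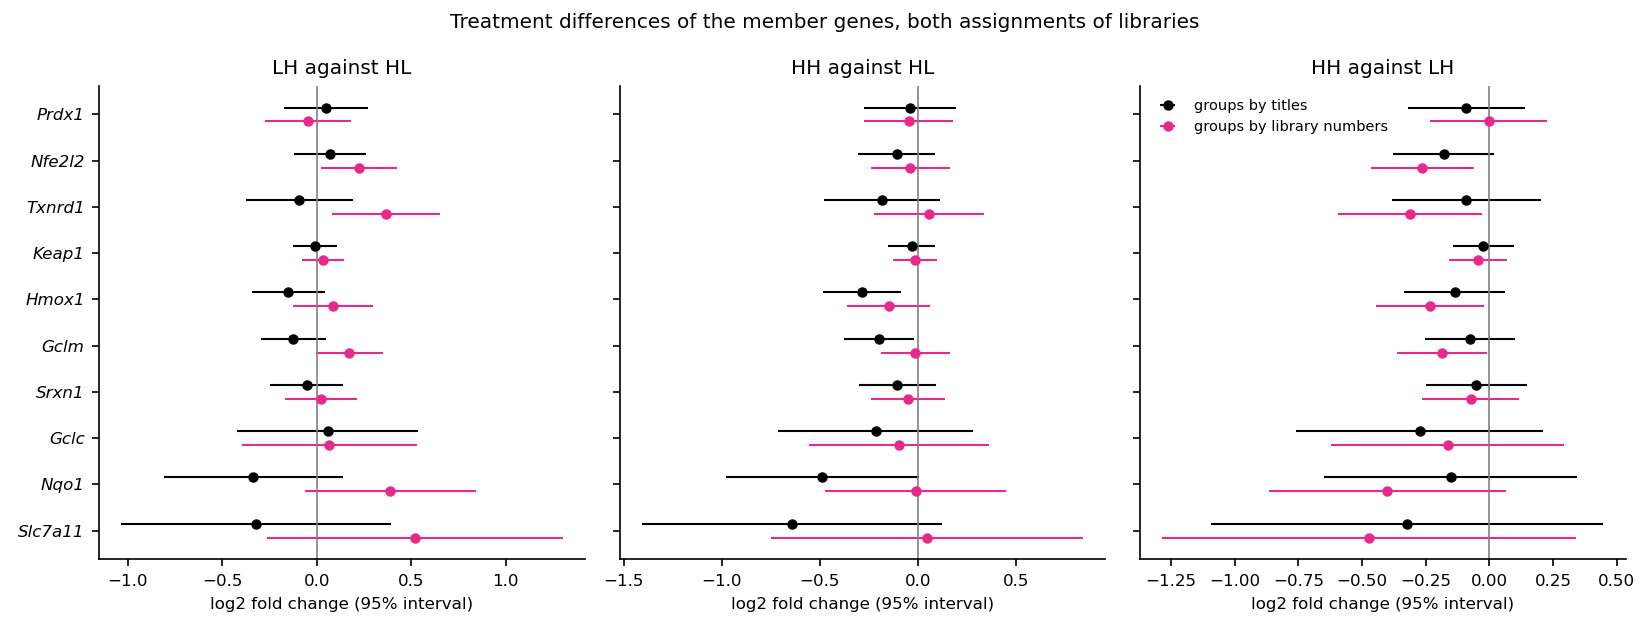
Fitted log2 fold change with its 95% interval (horizontal axes) for each member in LH against HL, HH against HL and HH against LH, by titles (black) and by library numbers (pink). In LH against HL the points of Txnrd1, Nqo1 and Slc7a11 move from the left of 0 to the right with the assignment, and in HH against LH they stay on the left.

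Leaving out 1 replicate number of HH changed the calls. The HH libraries numbered 4 had high Gclc (50.5 to 175 CPM), and the HL and LH libraries with that library number stayed in, so this choice fixes a lower HH value of Gclc in advance. Without HH replicate 4, Gclc in HH against HL was -0.76 (edgeR adjusted p = 0.18) and in HH against LH -0.84 (edgeR adjusted p = 0.282), where it had been -0.22 and -0.27 with all libraries. Both were then called, and so was Hmox1 in HH against HL at -0.35 (edgeR adjusted p = 0.158). Without that replicate 2.43% of all genes were called in HH against HL and 2.06% in HH against LH.

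Gclc was the member most often highest in the same replicate number. HH libraries have the same names in both assignments. In HH replicate 4, Gclc was at 50.5 CPM in the first collection, 91.4 at 4 h, 118 at 8 h, 136 at 12 h and 175 at 20 h. Replicates 1 to 3 of HH had 23.1 to 71.2 CPM in 14 libraries, and replicate 4 exceeded every other HH library of its own collection in 5 of 5 collections. By library numbers the same held in the other treatments. Replicate 4 of HL had 62.8, 82.0, 133, 130 and 152 CPM from the first to the fifth collection, against 27.2 to 71.5 in replicates 1 to 3. Replicate 4 of LH had 56.2, 70.8, 141 and 155 CPM in the first 4 collections and 122 in the last, against 27.0 to 84.6. Among libraries with a number, replicate 4 was thus the highest in Gclc in its treatment and collection wherever present, 15 of 15. Its first values overlapped with later values of the other replicates. Libraries that the read summary does not list are outside this count. Of these, HL collection 2 replicates 3 and 2 by titles had 178 and 153 CPM of Gclc, so high levels also occurred in libraries that cannot be placed. By titles the replicate numbers of HL and LH showed no such order, with replicate 4 at 33.5 to 79.8 CPM in those treatments. Over the 105 pairs of libraries numbered 4, deviations from the group means correlated with a median r of 0.294, with 97 pairs over 0.1 (a description over genes). By library numbers the score on the second principal component of 9272 genes was also highest in replicate 4 in 15 of 15 groups of treatment and collection, so these libraries stood apart in more than Gclc. In HL at 16 h, for example, it was 31.6 against at most -6.37 in the other replicates, and in the first HH collection -4.46 against at most -9.22. The pattern was noticed in the data and no test of replicate number was made.

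Txnrd1 was also high in replicate 4 from 8 h on. By library numbers its median was 165 CPM in the first collection of replicate 4 and 172 CPM in that of replicates 1 to 3. At 12 h the median of replicate 4 was 250 CPM (highest 298), against 148 to 206 in the others. In the last collection LH replicate 4 had 552 CPM and HH replicate 4 had 284, against 119 to 195 CPM in 9 libraries of the other replicates. Txnrd1 was highest in replicate 4 in 10 of 15 cases, and the remaining 8 members in 3 to 7 of 15. Nfe2l2 in replicate 4 was at 145 to 338 CPM (median 179), with medians of 182, 197 and 186 CPM in replicates 1, 2 and 3.

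**Figure D3:**
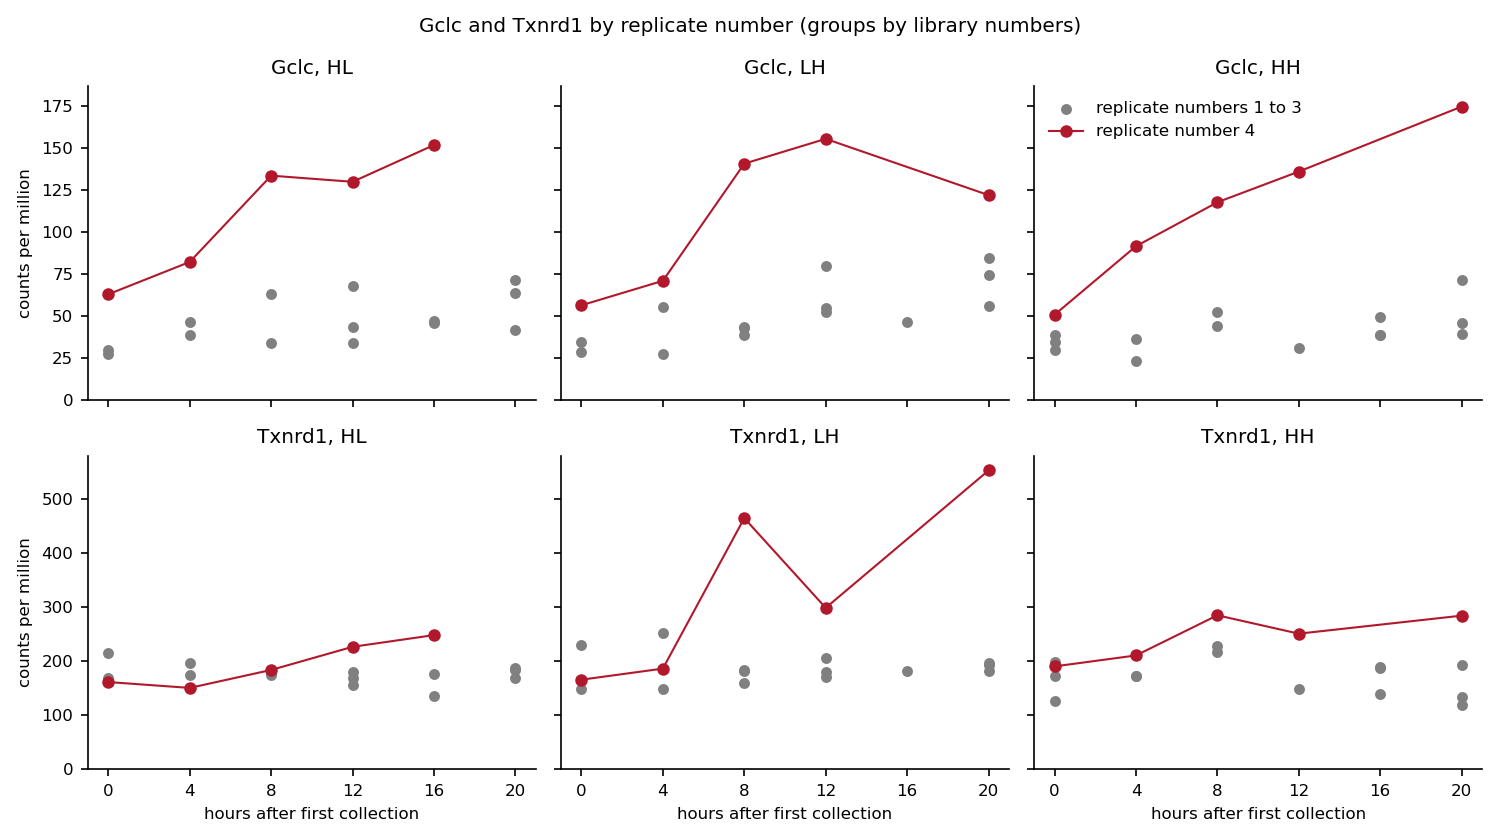
Gclc and Txnrd1 level (CPM, vertical axes) against hours after the first collection, 1 panel per treatment, libraries grouped by number, with replicate number 4 as red points joined by a line and replicates 1 to 3 as grey points. Gclc of replicate 4 lies above the grey points at each collection shown, and Txnrd1 does so from 8 h on.

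Other features of these libraries moved with Gclc. The second principal component of the 9272 genes with a mean of at least 5 CPM held 20.1% of the variance, and its score correlated with Gclc (r = 0.81) and Txnrd1 (r = 0.77) over 62 libraries, given as a description. The summed level of 10 fibroblast markers fell along it (r = -0.70). In the 4 libraries with the highest score this sum was 9861 to 21311 CPM, beside medians of 30021 (HL), 26478 (LH) and 29882 (HH) over the treatments by titles. The summed level of the endothelial markers in them was 22.8, 37.4, 35.6 and 72.3 CPM, beside treatment medians of 162 (HL), 194 (LH) and 185 (HH). That sum is mostly Kdr, at a mean of 172 CPM, while Pecam1, Cdh5 and Tek averaged 0.276 CPM or less. It therefore describes 1 gene and not a cell type. Gclc was at 122 to 178 CPM in the 4 libraries. The part of these differences in the Gclc levels was not tested. Fewer cells of a kind and less RNA per cell cannot be told apart in such bulk samples.

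The next question was whether the members changed over the 24 h of collection. Over the 6 collections, 0 of 10 members were called by edgeR (adjusted p under 0.05 over all genes) by titles, where 1.65% of all genes were, and 0 of 10 by library numbers, where 5.42% were. At an unadjusted p under 0.05 there were 0 members by titles, 1 by library numbers and 0 by DESeq2, beside 13.3%, 17.2% and 13.9% of all genes. The smallest adjusted p was that of Hmox1 by titles (edgeR, 0.397) and of Gclc by library numbers (edgeR, 0.13). With the replicate number added to the fit by library numbers as a replicate block, a choice made after seeing the data, Gclc was called over collections (edgeR adjusted p = 6.79e-08) and the other 9 members were not. In that fit 9.17% of all genes were called.

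Gclc was higher in later collections by library numbers, inside and outside replicate 4, while its means over all libraries by titles did not show this. By library numbers, replicates 1 to 3 of the 3 treatments together had 31.7 CPM ± 4.09 (SD, n = 7) at the first collection, 37.7 ± 11.8 (n = 6) at 4 h, 45.2 ± 9.55 (n = 7) at 8 h, 51.7 ± 17.8 (n = 7) at 12 h, 44.2 ± 4.42 (n = 6) at 16 h and 60.7 ± 16.1 (n = 9) at 20 h. All 9 libraries at 20 h, at 38.9 CPM or more, were above the 7 of the first collection, which reached 38.5 CPM. Replicate 4 had 56.5 ± 6.12 (n = 3) at the first collection and 140 ± 13.4 (n = 3) at 12 h. By titles the means over the treatments, with all replicates together, were 48.7, 83.5, 55.3, 65.8, 64.1 and 80.6 CPM from the first to the last collection. The highest was at 4 h, and they did not show this rise. HH, named alike in both assignments, had means of 38.2, 50.2, 71.1, 83.3, 42.1 and 82.6 CPM in the same order.

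No member was called for a treatment-specific time course in the fits with the filter on low counts. For the treatment by collection term 0 of 10 members were called by titles, where 0.128% of all genes were, and 0 of 10 by library numbers, where 0% were. Without the filter on low counts the same fit by titles called 4 members, Nqo1 (edgeR adjusted p = 3.23e-07), Gclc (edgeR adjusted p = 1.04e-15), Txnrd1 (edgeR adjusted p = 6.96e-05) and Prdx1 (edgeR adjusted p = 0.0042), where 5.19% of 20731 genes were called. edgeR had 1 member by titles and 3 by library numbers at an unadjusted p under 0.05, and DESeq2 had 2 by titles and called none. The shares of all genes at that threshold were 11.6%, 5.98% and 13.4%. No member was rhythmic by JTK_CYCLE, an exact rank test against 24 h curves, at P under 0.01. Titles gave a share of 0.82% of all genes for HL, 1.53% for LH and 1.99% for HH. Library numbers gave 1.83% for HL and 2.14% for LH. None had an exact P, corrected over phases, under 0.05 in any treatment or assignment. The smallest were those of Hmox1 in HL by library numbers (exact JTK P = 0.0628), Nqo1 in LH by library numbers (exact JTK P = 0.0653), and Nfe2l2 and Prdx1 in HH (exact JTK P = 0.0749 each). In HH the fitted peak of Nfe2l2 was at 10 h and that of Prdx1 at 22 h after the first collection.

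In 2 libraries of the last HH collection, Nfe2l2 and Hmox1 were low and Prdx1 was high. Nfe2l2 was at 67.1 and 95.2 CPM in replicates 3 and 2, the lowest of the 61 libraries, and at 179 and 193 CPM in replicates 1 and 4. The same libraries had 35.0 and 31.3 CPM of Hmox1, against 57.4 and 82.3 in the other libraries, while Prdx1 was at 800 and 458 CPM, against 350 and 314. Srxn1 was at 74.1 CPM in replicate 3 and at 30.1 CPM in replicate 2, its lowest of the 61 libraries, so these 2 libraries did not move alike in all members. The 4 libraries carry the same label and no test was made within them.

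Nqo1, Hmox1, Gclm, Srxn1 and Slc7a11 had their highest level in the same library, HL collection 3 replicate 4 by titles (LH collection 2 replicate 1 by library number). It had 54.0 CPM of Nqo1, against 18.6 and 17.9 in the other 2 libraries of its group by titles. Hmox1 was at 165 CPM, against 71.8 and 78.8, and Gclm at 119 CPM, against 60.2 and 49.6. Srxn1 was at 102 CPM, against 50.4 and 57.9, and Slc7a11 at 14 CPM (75 counts), against 0.859 and 1.28 (5 and 6 counts). Both sequencing runs of the library had these levels, with 162 and 169 CPM of Hmox1 and 49.1 and 59.1 CPM of Nqo1. Gclc, at 55.0 CPM, was near its median there, Nfe2l2 was at 173 CPM, and the library had 5347784 counts.

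Which members rose and fell together across libraries was then tested on log2 CPM, with 45 pairs, permutation tests of 100000 resamples (two-sided) and Benjamini-Hochberg adjustment over the pairs. Over the 62 libraries 17 pairs had an adjusted p under 0.05, of which 15 were positive. With the treatment by collection means subtracted and permutation within groups, 8 pairs did by titles and 13 by library numbers. The median r of the 45 pairs was 0.26, and the median r of a member with a gene outside the set was 0.022. All libraries share cells, depth and base composition effects with each other, and Nqo1 (r = 0.48), Srxn1 (r = 0.44) and Keap1 (r = 0.54) correlated with the log10 total count (a description over 62 libraries, the shallow one included).

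Gclc and Txnrd1 were a main pair (r = 0.66, rho = 0.51, permutation adjusted p = 0.00015 for r and 0.00135 for rho). Without the 2 libraries farthest from the Gclc median r was 0.60, and within groups it was 0.65 by titles (permutation adjusted p = 0.00045). Split by library numbers, r was 0.25 in the 42 libraries numbered 1 to 3 (permutation adjusted p = 0.192) and 0.69 in the 15 numbered 4 (permutation adjusted p = 0.0172). The difference between these r values was not tested.
Nfe2l2 and Txnrd1, the factor and one of its targets, had r = 0.61 and rho = 0.41 (permutation adjusted p = 0.00015 and 0.00771). Here r was 0.43 in replicates 1 to 3 (permutation adjusted p = 0.018) and 0.86 in replicate 4 (permutation adjusted p = 0.00765), and without the 2 farthest libraries it was 0.49 over all libraries. Within these subsets r fell to 0.27 and 0.53 without the 2 farthest libraries, and neither rho passed (permutation adjusted p = 0.0813 in replicates 1 to 3 and 0.104 in replicate 4). In replicate 4 rho was 0.68 over 15 libraries.

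Nqo1 and Srxn1, which detoxify quinones and repair peroxiredoxins, had r = 0.69 (rho = 0.47, permutation adjusted p = 0.00015 and 0.0018). Without the 2 libraries farthest from the Nqo1 median r was 0.43, and it was 0.52 without the library under 1000000 counts. With that library it had the highest r of the 45 pairs, and without it 5 pairs had a higher r, led by Gclc and Txnrd1 with 0.66. In replicates 1 to 3 it was 0.52 (permutation adjusted p = 0.0045), and in replicate 4 it was 0.0066 (permutation adjusted p = 0.989). Srxn1 and Prdx1, the repair enzyme and its kind of substrate, had r = 0.49 and rho = 0.49, and r = 0.53 without the 2 farthest libraries (permutation adjusted p = 0.0009 and 0.00135). Within groups r was 0.53 by titles (permutation adjusted p = 0.0388) and 0.44 by library numbers (permutation adjusted p = 0.0777). In replicates 1 to 3 it was 0.46 (permutation adjusted p = 0.0176), and in replicate 4 it was 0.20 (permutation adjusted p = 0.760).
Nfe2l2 and Prdx1 ran opposite to each other, with r = -0.46 and rho = -0.51 (permutation adjusted p = 0.00212 and 0.00135). This r was -0.58 without the 2 libraries farthest from the Nfe2l2 median, -0.78 in replicates 1 to 3 (permutation adjusted p = 0.000225) and 0.12 in replicate 4 (permutation adjusted p = 0.836). Within groups by titles it was -0.57 (permutation adjusted p = 0.0388), and by library numbers, where the pair did not pass, -0.36 (permutation adjusted p = 0.309). Nfe2l2 with Nqo1 had r = -0.29 (permutation adjusted p = 0.0627), and Nfe2l2 with Keap1 had r = 0.34 and rho = 0.22 (permutation adjusted p = 0.0449 and 0.203), where r was 0.18 without the 2 farthest libraries. Without the library under 1000000 counts this r was 0.57 (permutation adjusted p = 0.000113), and within groups by library numbers 0.52 (permutation adjusted p = 0.0154). Within groups by titles it was 0.43 and did not pass (permutation adjusted p = 0.469), nor did rho without the shallow library (0.27, permutation adjusted p = 0.0917). The 2 subunits of glutamate cysteine ligase, Gclc and Gclm, had r = 0.26 (permutation adjusted p = 0.0692). That pair did not pass the test, while Hmox1 and Gclm did (r = 0.47, permutation adjusted p = 0.00173), and so did Gclm and Txnrd1 (r = 0.52, permutation adjusted p = 0.00045). Within groups by titles neither passed (permutation adjusted p = 0.0784 and 0.0605). By library numbers Gclm and Txnrd1 passed (r = 0.54, permutation adjusted p = 0.0131) and Hmox1 and Gclm did not (r = 0.46, permutation adjusted p = 0.0777). Over all libraries but the 2 farthest, r was 0.27 for Hmox1 and Gclm and 0.40 for Gclm and Txnrd1.

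**Figure D4:**
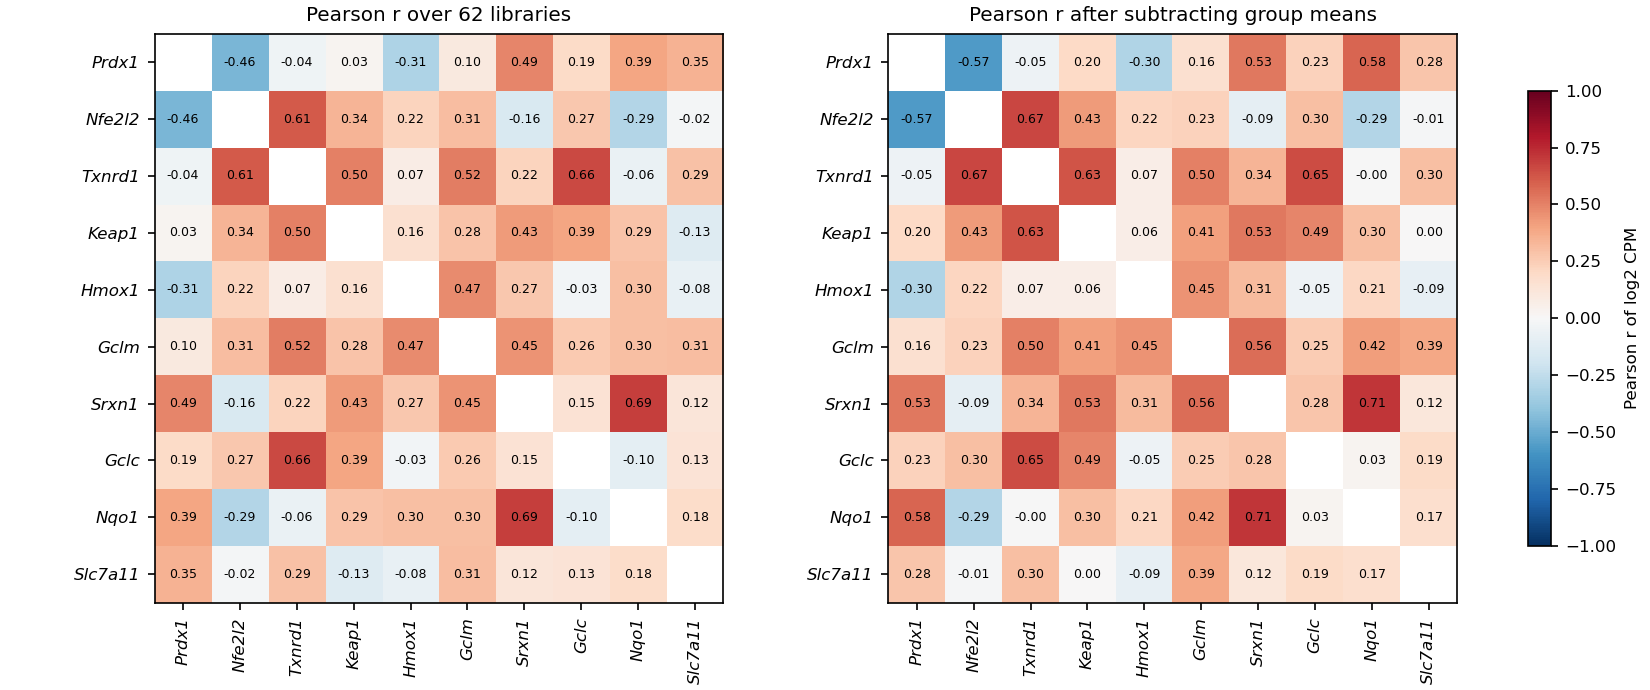
Pearson r between the log2 CPM of each pair of members over 62 libraries (left) and after the treatment by collection means by titles were subtracted (right), with red for positive and blue for negative values. Gclc, Txnrd1, Nfe2l2 and Keap1 share red cells, Nqo1, Srxn1 and Prdx1 form another group, and the cell of Nfe2l2 and Prdx1 is blue at -0.46 and -0.57.

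**Figure D5:**
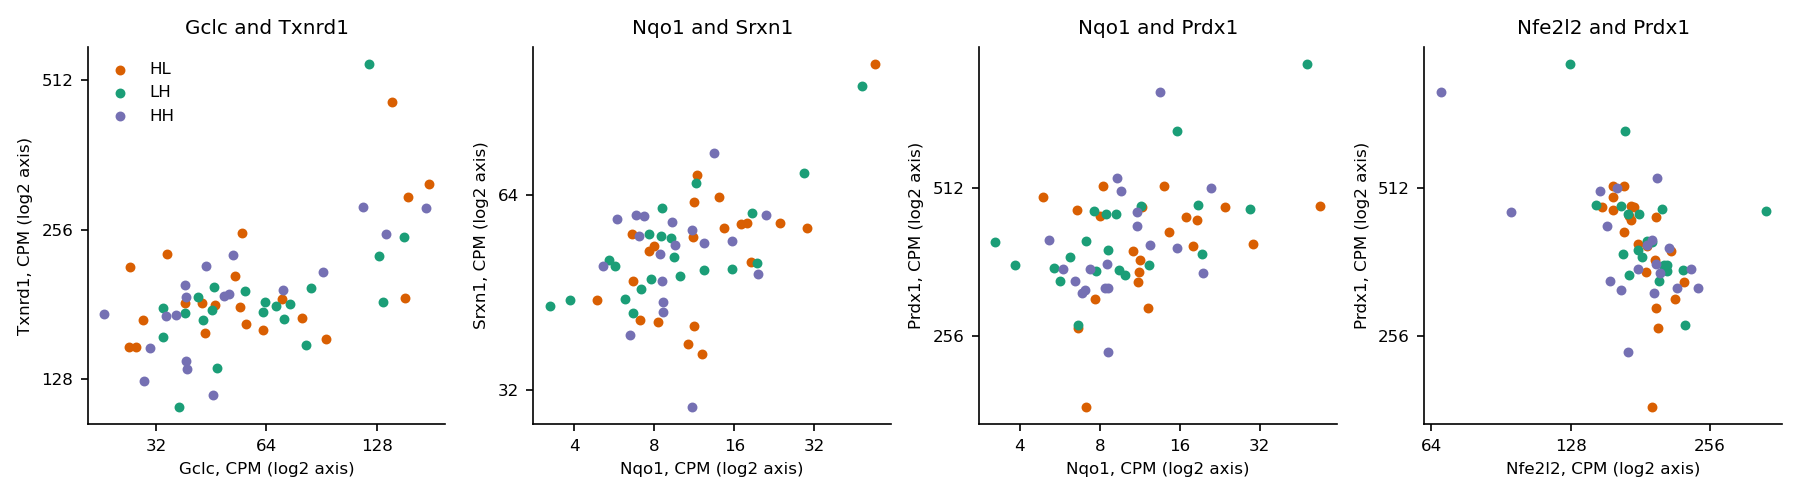
Levels of 4 pairs of members (CPM, log2 axes) in 61 libraries, colored by treatment by titles. The 3 treatments are mixed along each relation, the 2 libraries highest in Nqo1 (54.0 and 48.2 CPM) are also the highest in Srxn1 (102 and 94.1 CPM), and the 3 libraries lowest in Nfe2l2 have 458 to 914 CPM of Prdx1.

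Genes outside the set were ranked by their r over 62 libraries with the mean z-score of the 8 members other than Nfe2l2 and Keap1, among 9263 genes with a mean of at least 5 CPM. These r values are a description. The 8 highest were Utp4 (0.76), Ptgs2 (0.74), Ypel5 (0.74), Akr1b3 (0.73), Tpd52l1 (0.71), Orai2 (0.71), Mrpl45 (0.70) and Cdkn2a (0.70). Ptgs2 is the inducible cyclooxygenase, and Akr1b3 is an aldose reductase. The 3 lowest were Cacna1a (-0.72), Abca9 (-0.72) and Gm36426 (-0.72). The r of the 8 highest was 0.65 to 0.75 without the 3 libraries highest in the members. Among genes of the pathway, Slc6a9 (0.69), Sqstm1 (0.69), which binds KEAP1, and Pgd (0.67), which makes NADPH, stood at ranks 13, 14 and 35. The median r was 0.21 over 23 other NRF2 targets, 0.32 over 16 other antioxidant enzymes and 0.33 over 9 regulators, beside 0.057 over the 9263 genes.

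The wider pathway was described with lists of 10 regulators, 26 other NRF2 targets and 19 other antioxidant enzymes, of which 10, 25 and 18 passed the filter. By titles 0 of these were called between treatments (edgeR and the same thresholds), where 1.16% (LH against HL), 1.2% (HH against HL) and 0.91% (HH against LH) of all genes were. By library numbers 2 were, Mafk and Osgin1, beside 1.34%, 0.568% and 1.63% of all genes in the same order. By library numbers Mafk, a small MAF partner of NRF2, was higher in LH than in HL (0.39, 0.097 to 0.67, log2 scale; edgeR adjusted p = 0.611) and lower in HH than in LH (-0.42, -0.71 to -0.13; edgeR adjusted p = 0.341). Its level was 31.7 CPM ± 6.68 (SD, n = 19) in HL, 40.1 ± 22.8 (n = 19) in LH and 30.9 ± 5.77 (n = 19) in HH. A single LH library, the one highest on the second principal component, had 123.5 CPM of Mafk, and without it the LH mean was 35.5 ± 10.8 (n = 18). The part of that library in the call was not tested. Osgin1, a growth inhibitor induced by oxidative stress, was lower in LH than in HL by library numbers (-0.51, -0.80 to -0.21; edgeR adjusted p = 0.478), at 9.13 CPM ± 3.17 against 13.5 ± 4.79 (SD, n = 19 each). By titles its direction was the opposite (0.24, -0.072 to 0.56; edgeR adjusted p = 0.921), at 12.1 CPM ± 4.46 (n = 22) in LH against 10.6 ± 4.21 (n = 21) in HL, and it was not called.

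Over collections, 1 regulator and 1 other target were called by titles, Maff and Ephx1, where 1.65% of all genes were called (5.42% by library numbers). Ephx1, the microsomal epoxide hydrolase, was called in both assignments (edgeR adjusted p = 0.00905 by titles and 1.16e-06 by library numbers). By library numbers it was at 72.9 CPM ± 11.7 (SD, n = 10) in the first collection, 74.1 ± 11.9 (n = 9) at 4 h, 85.3 ± 9.10 (n = 10) at 8 h, 97.6 ± 8.53 (n = 10) at 12 h, 106 ± 19.8 (n = 7) at 16 h and 101 ± 15.3 (n = 11) at 20 h. By titles the course was less even, with means of 80.9, 93.8, 75.8, 89.8, 97.0 and 107 CPM over the 6 collections (n = 10, and 12 at 20 h). In HH, named alike in both assignments, it went from 68.3 CPM ± 4.45 (n = 3) at 4 h to 105 ± 12.2 (n = 4) at 20 h, its highest mean, with an exact JTK P of 0.000856 and a fitted peak at 16 h. Maff, another small MAF partner, was called in both assignments (edgeR adjusted p = 0.00817 and 0.00238). Its level was low, at 1.60 CPM ± 0.968 (n = 10) in the first collection and 7.67 ± 12.4 (n = 11) in the last by library numbers. One library with 44.5 CPM weighed on the last mean, which was 3.99 ± 2.24 (n = 10) without it. By titles that library belongs to the second collection, where the mean was highest at 10.7 ± 16.3 (n = 10) and was 6.96 ± 11.8 (n = 9) without it, another library there being at 37.2 CPM, with 4.44 ± 4.01 (n = 12) at 20 h, so the time courses differed between the assignments. By library numbers Gstm1 (edgeR adjusted p = 0.00897), Osgin1 (edgeR adjusted p = 0.0337) and Prdx6 (edgeR adjusted p = 0.000989) were called as well, and Prdx6 was highest at 12 h with 127 CPM ± 13.6 (n = 10), against 97.6 ± 9.57 (n = 11) at 20 h.

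Rhythms in the wider pathway were called in HH for Ephx1, Bach1 and Prdx5, beside 1.99% of all genes. Bach1, a repressor that competes with NRF2 for its sites, was highest at 8 h with 46.1 CPM ± 3.28 (SD, n = 3) and lowest at 20 h with 26.4 ± 8.68 (n = 4), with an exact JTK P of 0.00762. Prdx5, a peroxiredoxin of mitochondria and peroxisomes, went from 209 CPM ± 9.18 (n = 4) at the first collection to 149 ± 4.41 (n = 2) at 12 h and was at 213 ± 47.7 (n = 4) at 20 h, with an exact JTK P of 4.74e-05. In HL by library numbers, Maff (exact JTK P = 0.000464), Ephx1 (exact JTK P = 9.17e-05) and Prdx6 (exact JTK P = 0.00124) were called, and in LH by library numbers Gss, glutathione synthetase (exact JTK P = 0.00594). The shares of all genes called there were 1.83% for HL and 2.14% for LH. By titles none of these lists had a call in HL or LH, where 0.82% and 1.53% of all genes were called. Whether the rhythms of the treatments differed was not tested beyond the treatment by collection term, in which 0 list genes were called in both assignments.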

How the data were processed

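The series holds 62 3′DGE libraries of Per2::Luc mouse fibroblasts, 59 of them read in 2 runs. Per the labels and the submitters' processing notes, reads were demultiplexed with bcl2fastq, aligned with STAR 2.6.0a to mm10 and counted with HTSeq 0.9.1. The authors deposited the counts per Ensembl gene without normalization as 121 sets, 1 per run of a library. Neither strand use in counting nor the release of the gene models is given in the sources used here. Summary lines without a gene were dropped, and HTSeq had placed 18.4% to 29.1% of the reads of a run on no feature. Symbols (30934 of 31053 genes) and positions came from GENCODE M21 (GRCm38), and promoter windows from RefSeq (GRCm38.p6).

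The runs of a library were summed. The filter kept genes reaching 1 CPM in 3 or more libraries (13292 by titles, 13198 by library numbers), which were tested with edgeR 4.0.16 (quasi-likelihood test, TMM scaling, treatment and collection as terms, 95% intervals from its standard errors). The use of edgeR and the thresholds of 0.01 over the treatments and 0.05 in a pair were taken from the study's methods. Their exclusion of samples with few genes above 5 CPM was not applied, and every library had at least 8225 such genes. In the library with 104912 counts, 3 counts already give 28.6 CPM, so there this number says little about depth. DESeq2 1.42.0 was an alternative. Rhythms were tested by JTK_CYCLE with the exact null distribution, a 24 h period and phases every 2 h, at 0.01. Each exact JTK P printed is that of the best phase multiplied by the 12 phases tried. Correlations used log2 CPM after TMM scaling with a prior count of 2. Time was taken as collection order times 4 h, since the clock hours in the labels do not follow that order. The scripts were tested on simulated data. Library totals of 104912 to 11619095 counts set the precision, and a count of 0 allows 3 counts.

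The members and lists were chosen with earlier results of these data known. Named genes were the 10 members, called genes of the other lists (at most 3 with the smallest p per list and comparison), and the 8 genes with the highest and the 3 with the lowest r with the members' mean. Alternatives were groups by library numbers, single runs, other scalings and filters, other terms, and leaving out replicates or libraries.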

Additional observations from a re-analysis of the deposited data

Results flagged for a closer look

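In each group of 4 libraries by titles, the gap between the highest or lowest member level and its neighbor was compared with the range of the group by Dixon's 95% limit, in 90 groups (9 for each member). Chance flags about 1 in 20 such groups, and 6 were flagged. Gclc was at 155 CPM in HL collection 6 replicate 3, against 46.3 to 54.3 in the other 3 libraries, and at 130 CPM in LH collection 5 replicate 2, against 33.4 to 46.8. Both libraries are numbered as replicate 4 in the read summary. Nfe2l2 was at 206 CPM in LH collection 3 replicate 1, against 165 to 171. Srxn1 was at 66.6 CPM in LH collection 3 replicate 4, against 48.0 to 50.2. Hmox1 was at 56.2 CPM in HL collection 4 replicate 1, against 65.1 to 66.1, and Gclm at 39.1 CPM in HH collection 1 replicate 3, against 61.2 to 65.3, both below their group. Groups of 3 or fewer were not examined in this way.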

How the results depend on the processing

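The call of 0 of 10 members depended on few choices. Leaving out 1 replicate number of a treatment at a time gave 0 to 2 members called in HH against HL and 0 to 1 in HH against LH, and the highest values came without HH replicate 4. Fitting the replicate block by library numbers gave 1 member called over collections (Gclc). Without a filter on low counts 4 members were called for treatment by collection (Nqo1, Gclc, Txnrd1 and Prdx1, in a fit that called 1075 of 20731 genes), and an edgeR cosine fit in place of JTK gave 1 in HH (Prdx1, edgeR adjusted p = 0.323, in a fit that called 388 of 13292 genes, or 2.92%). The 17 correlated pairs became 8 with group means by titles subtracted and 11 without the 3 libraries highest in the members. Causes were not tested. Same-numbered libraries by titles correlated with a median of 0.00555 over 452 pairs, 97 of them over 0.1, so the numbers do not pair the libraries. The replicate block by titles called 0 members and changed no call. By library numbers the median was 0.129 over 365 pairs, with 220 over 0.1, and among libraries numbered 4 it was 0.294, with 97 of 105 over 0.1. Since not every pair was over 0.1, the main fits by library numbers held no replicate term. They thus treated libraries of the same number as separate, although those numbered 4 varied together. With the replicate block Gclc was called over collections (edgeR adjusted p = 6.79e-08).

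Of 777 log2 fold changes under alternatives, 721 kept their direction and side of the threshold, 3 passed it newly and 53 changed sign. With a 24 h cosine and sine for collection it was Gclc -0.065 in LH against HL. With DESeq2, the values that changed sign were Keap1 0.0050 in LH against HL. By library numbers, the values that changed sign were Keap1 0.031, Nqo1 0.39, Hmox1 0.084, Gclm 0.17, Txnrd1 0.37, Srxn1 0.022, Slc7a11 0.52 and Prdx1 -0.046 in LH against HL and Txnrd1 0.054 and Slc7a11 0.044 in HH against HL. With the replicate block by library numbers, the values that changed sign were Keap1 0.022, Nqo1 0.45, Hmox1 0.076, Gclm 0.17, Txnrd1 0.31, Srxn1 0.025, Slc7a11 0.50 and Prdx1 -0.036 in LH against HL and Txnrd1 0.029 and Slc7a11 0.0057 in HH against HL. With library totals alone, the values that changed sign were Keap1 0.024 in LH against HL, Keap1 0.030 and Prdx1 0.010 in HH against HL and Keap1 0.0064 in HH against LH. With no term for collection it was Gclc -0.071 in LH against HL. With the second sequencing run alone, the values that changed sign were Keap1 0.038 and Prdx1 -0.046 in LH against HL and Srxn1 0.013 in HH against LH. Without libraries under 1000000 counts, the values that changed sign were Keap1 0.012 in LH against HL. Without the 3 libraries highest in the members, the values that changed sign were Nfe2l2 -0.033 in LH against HL and Keap1 0.014 and Txnrd1 0.10 in HH against LH.

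Leaving out 1 replicate number of a treatment at a time also changed signs. LH against HL ran from -0.029 to 0.13 for Nfe2l2, from -0.057 to 0.023 for Keap1, from -0.12 to 0.22 for Gclc, from -0.29 to 0.0027 for Txnrd1, from -0.098 to 0.021 for Srxn1 and from -0.011 to 0.11 for Prdx1. HH against HL ran from -0.12 to 0.073 for Prdx1. HH against LH ran from -0.049 to 0.022 for Keap1, from -0.39 to 0.020 for Nqo1, from -0.25 to 0.085 for Txnrd1, from -0.11 to 0.015 for Srxn1, from -0.53 to 0.20 for Slc7a11 and from -0.18 to 0.021 for Prdx1. The alternatives by library numbers with the replicate block and without the 3 highest libraries were chosen after seeing the data. Depth limits Slc7a11, with at most 75 counts a library.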
